A study of Mus musculus with 4 samples.

Results

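The cytosolic ribosomal protein genes were studied as a group of 84 genes, out of 22730 gene symbols in the deposited transcript tables of thymocyte RNA. They were chosen by name alone: symbols made of Rpl or Rps and a number, with or without a trailing a, x, y or l and a further number, together with Rplp0, Rplp1, Rplp2 and Rpsa, and without the Rps6k kinases. Of these, 51 belong to the large ribosomal subunit and 33 to the small subunit. For 9 of them the tables held more than 1 transcript row, and the row with the most reads over the 4 libraries was kept.

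RNA from total thymocytes of 2 wild-type mice and 2 hnRNP L KO mice was depleted of ribosomal RNA and sequenced. hnRNP L, the product of Hnrnpl, binds RNA and takes part in the choice of splice sites. The labels give all 4 mice 1 mixed background of CD45.1, C57BL/6, LckCre transgenic and Gt(ROSA)26Sortm4(ACTB-tdTomato,-EGFP)Luo, so no difference between the groups in these alleles is recorded. An LckCre transgene expresses Cre recombinase from a promoter of Lck, a kinase gene of the T cell lineage, and the Gt(ROSA)26Sor allele is a fluorescent reporter of Cre activity. The sources used here do not give which mice carried Cre, the exons deleted, or the age and sex of the mice.

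Ribosomes translate mRNA. The small subunit reads the codons, the large subunit joins the amino acids, and a stalk of the proteins Rplp0, Rplp1 and Rplp2 recruits the elongation factors. Ribosomal protein mRNAs are short and abundant, most begin with a run of pyrimidines through which growth signals control their translation, and the mammalian genome carries many processed pseudogenes copied from them. In the thymus the large subunit protein Rpl22 is known for its role in the development of alpha-beta T cells, and free ribosomal proteins of impaired ribosomes can bind Mdm2 and so raise p53.

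The 4 libraries held 27548708 to 51544714 reads on 1 transcript per gene and 3302915 to 6146421 reads on exon-exon junctions. Hnrnpl stood at 854 and 813 CPM (counts scaled to library size, with TMM) in wild-type replicates 1 and 2 and at 467 and 208 CPM in KO replicates 1 and 2, which is 56.0% and 25.001% of the wild-type mean. Reads of the Y-linked gene Ddx3y numbered 4116 in KO replicate 1 and 1 to 17 elsewhere, and reads of Xist 222 there and 57852 to 87390 elsewhere, so the KO mice differ in sex by these reads. Small RNA genes held 6.49% of gene reads in wild-type replicate 1 and 0.777 to 1.59% in the others. Markers of thymocytes summed to 15285 to 19507 CPM, those of B cells to 37.95 to 45.3 CPM and those of thymic stroma to 243 to 304 CPM. Of 14 thymocyte markers 9 had negative estimates on transcript reads (median log2 fold change -0.12). At an unadjusted p under 0.05 by edgeR, 2 (Cd3e and Rag2) were higher and 0 lower in KO on these reads. Of all genes 6.29% were higher and 3.61% lower. On junction reads Cd3e and Rag2 were again higher, and Cd3d was lower (log2 fold change -0.64, SE 0.20). None passed by edgeR on either count, while DESeq2 called 2 on transcript reads. Of 12 stroma markers 1 (Epcam) was higher and 0 lower at an unadjusted p under 0.05 by edgeR on transcript reads. Most of the stroma sum was Pecam1, with 189 and 172 CPM in KO replicates 1 and 2. Psmb11 had 3.98 and 15.8 CPM and Ccl25 14.7 and 45.1 CPM in the same order. Markers of mature single-positive T cells summed to 673 CPM in KO replicate 2 and to 890 to 973 CPM elsewhere. Myeloid markers summed to 260 to 286 CPM. Of 10 tested on transcript reads, 3 (Csf1r, Cd68 and Emr1) were higher and 1 (S100a9) lower in KO. This was at an unadjusted p under 0.05 by edgeR, where 0 passed. On junction reads Csf1r and Emr1 were higher and S100a8 lower at that threshold. Markers of erythroid cells summed to 460 CPM in KO replicate 1 and to 94.1 to 147 CPM elsewhere, and no marker in the files lacked reads in all libraries. The part of these differences in the results on ribosomal protein genes was not tested. In bulk RNA, fewer cells of a type and less RNA per cell cannot be told apart.

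The first question was at what level each gene was read in thymocytes. By the authors' RPKM (reads scaled to transcript length and to mapped reads), the mean over the 4 libraries had a median of 8.31 over the 84 genes. Values above 100 RPKM were found for 13 genes and values under 1 RPKM for 21. The 2 subunits spanned the same broad range, with medians of 7.22 RPKM for the large subunit and 10.8 RPKM for the small subunit.

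Among the genes with the highest means, Rpl4 (NM_024212, mm9 chromosome 9, 64021194 to 64026369), which lines the tunnel through which the new protein leaves, had 280 and 335 RPKM in wild type and 284 and 317 RPKM in KO. Its groups overlapped. Rpl32 of the large subunit had 293 and 283 RPKM in wild type and 203 and 225 RPKM in KO, so both KO libraries lay below both wild types. Rpl8, which sits near the site of peptide bond formation, had 197 and 200 RPKM in wild type and 157 and 201 RPKM in KO. Rps20, a protein of the small subunit head, had 158 and 216 RPKM in wild type and 159 and 153 RPKM in KO. Rpl4 and Rpl32, which are neighbours in this order, overlapped in wild type, while in KO both values of Rpl4 were above both of Rpl32. Rpl8 and Rps20, also neighbours, overlapped in both groups.

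At the other end, Rpl10l held 3 reads in the 4 libraries together, Rpl28 held 4, Rps28 held 8 and Rpl3l held 36. Their mean levels were 0.00752 RPKM for Rpl10l, 0.0206 for Rpl28, 0.0712 for Rps28 and 0.0725 for Rpl3l. Rpl10l is a retrogene known from testis and Rpl3l a paralog known from striated muscle, whereas Rpl28 and Rps28 encode proteins found in every ribosome. A library with 0 reads of such a gene, as KO replicate 2 for Rpl28, allows up to 3 reads by counting error alone, so the order of the lowest genes is not resolved.

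**Figure D1:**
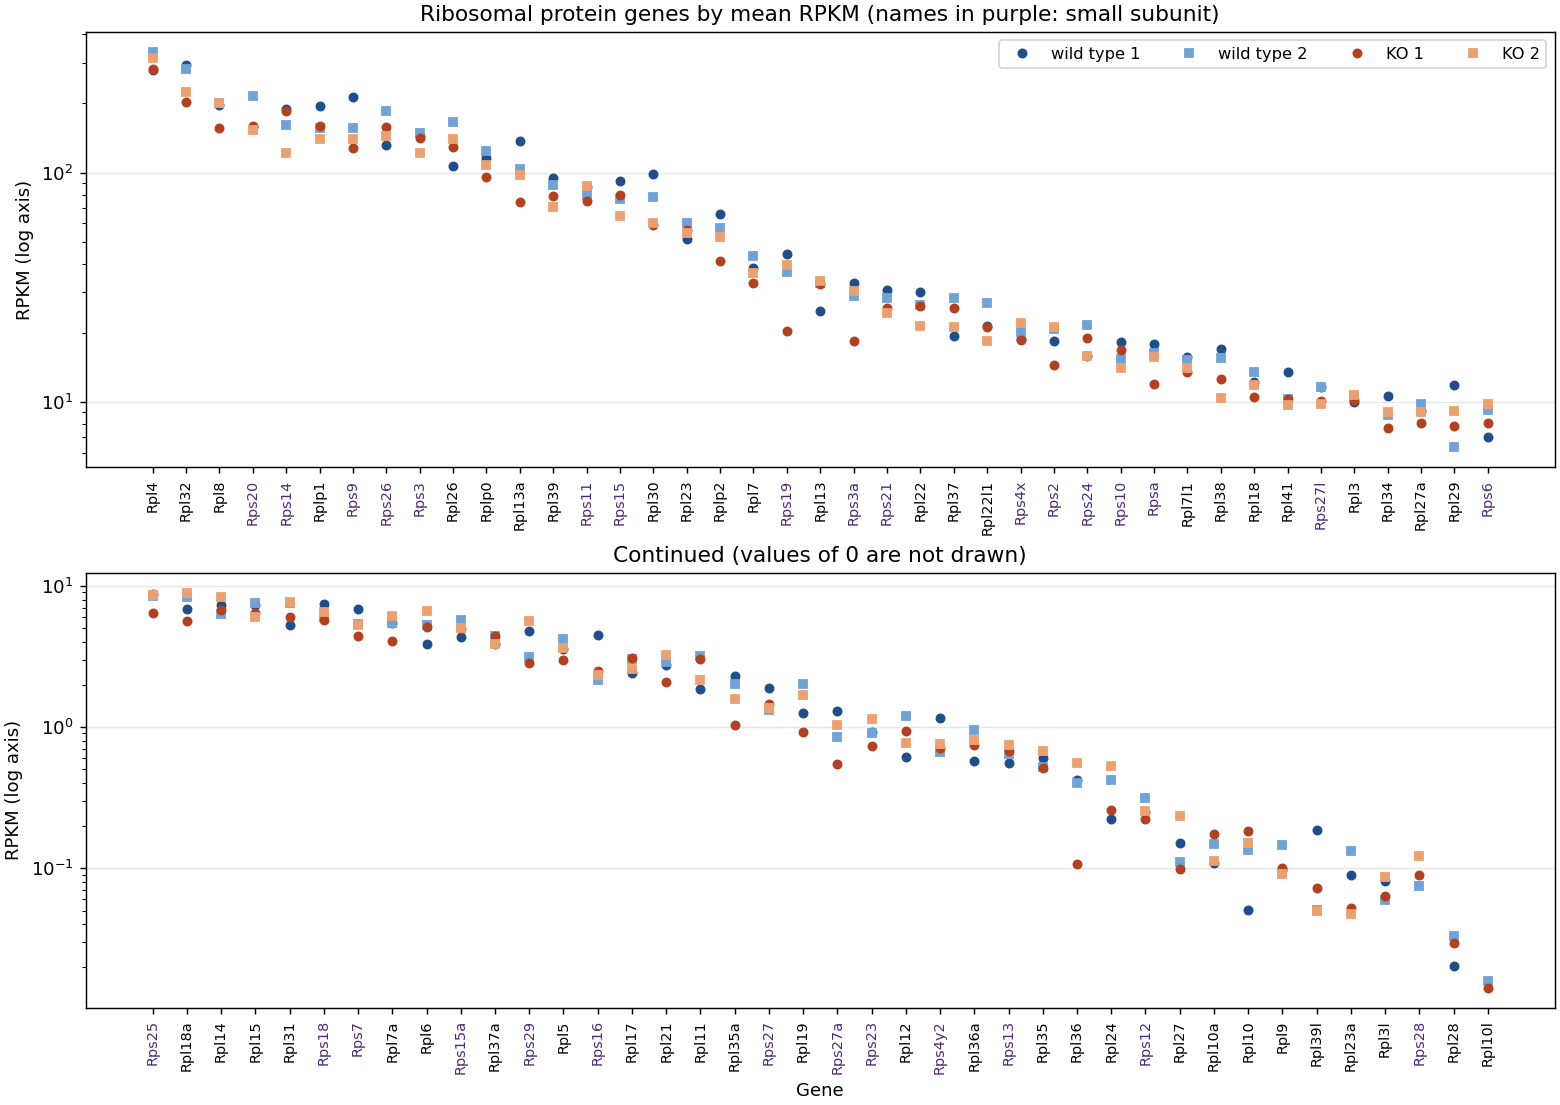
RPKM of 81 ribosomal protein genes in each library, on a log axis, in order of their mean, with the higher genes above and the lower ones below. Circles are replicate 1 and squares replicate 2 of wild type (blue) and KO (red and orange), and values of 0 are not drawn; the points of a gene lie close together beside the range between the genes drawn, from a mean of 304 RPKM for Rpl4 to 0.00752 RPKM for Rpl10l.

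Paralog pairs were compared by RPKM and, where both copies had them, by a second count, reads across known exon-exon junctions. Rpl22 and Rpl22l1, its close homolog, were near each other by RPKM, with 30.2 and 26.6 RPKM for Rpl22 and 21.4 and 27.0 RPKM for Rpl22l1 in wild type. In the KOs they had 26.2 and 21.4 RPKM for Rpl22 and 21.3 and 18.5 RPKM for Rpl22l1. The 2 genes overlapped by RPKM, but known junctions held 5855 reads of Rpl22 and 527 of Rpl22l1 over the 4 libraries. Rps27l, a gene known as a p53 target, had a mean of 10.8 RPKM, against 1.51 RPKM for Rps27, whose kept row is a non-coding transcript. Known junctions held 4873 reads of Rps27l and 4325 of Rps27, and the median known junction of each gene was at 10.7 for Rps27l and 47.4 for Rps27 in junction reads scaled to library total, so the median junction had the opposite order to RPKM. Rpl7 had a mean of 37.7 RPKM against 14.6 for Rpl7l1 (20499 and 1566 junction reads), and Rpl3 10.4 RPKM against 0.0725 for Rpl3l. Rpl39, which lies in the exit tunnel, had 83.2 RPKM against 0.0897 for Rpl39l, a paralog known from male germ cells. Rps4x had 19.95 RPKM against 0.821 for Rps4y2, listed as a non-coding transcript on chromosome 6. Rpl10, with 36 reads, had 0.129 RPKM against 0.00752 for Rpl10l, with 3. In every library the copy with the higher mean RPKM in the 5 pairs from Rps27l to Rps4x was above the other copy by RPKM.

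The low level of common subunit proteins was compared with a second count of the same libraries, the deposited reads across known exon-exon junctions. By that count Rpl28 had 907 reads over the 4 libraries where its transcript row had 4. Rpl23a of the exit tunnel rim had 9819 junction reads against 18 transcript reads, and Rpl10, which joins the large subunit late in its assembly, had 1995 against 36. Rpl12, a protein at the base of the stalk, had 21629 junction reads against 211. The paralogs known from other tissues stayed low: Rpl3l had 6 junction reads and Rpl39l had 0. Rpl10l, Rpl26 and Rps4y2 were not listed under these symbols in the junction tables. At the coordinates of Rpl26 the tables list 3 junctions under the symbol Gm15772, with 2116 and 2264 reads in wild type and 1099 and 1292 in KO.

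Junction reads outnumbered transcript reads in 46 of the 84 genes and did so more than 10 times in 19. Of the 21 genes under 1 RPKM, 16 were among those 19. A low transcript count lowers RPKM and raises this ratio alike. Over the 67 ribosomal protein genes with known junctions and at least 100 transcript reads, the median was 1.26 junction reads per transcript read, and 50.7% had a ratio above 1. Among 11723 other genes chosen alike the median was 0.106 and 0.734% had a ratio above 1. The difference was there also against the 3593 other genes with at least 4.34 known junctions per kb, the lower quartile of the ribosomal protein genes, where the median was 0.176 and 1.45% were above 1. In single libraries the median of the ribosomal protein genes was 1.21 and 1.16 in wild type and 1.44 and 1.32 in KO.

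Genes with high RPKM had lower ratios than those with low RPKM (Spearman rho -0.783 over 80 genes). The transcript reads enter both values, so part of this relation is built in. Rpl4 had 160005 transcript and 83315 junction reads, Rps3 96637 and 27665, and Rpl8 60567 and 13766. At 0.521 in Rpl4 and 0.227 in Rpl8 the ratio was still above the median of other genes, 0.106. Among the 67 genes with at least 100 transcript reads and known junctions, Rplp1 had the fewest junction reads per transcript read, 1338 against 28231. By the median known junction, in junction reads scaled to library total, Rpl4 led with 541, followed by Rps14 with 309 and Rps15 with 301, and Rpl12, at rank 24 of 80, had 83.3. Across 80 genes the level by RPKM and the level by junctions were related with a Spearman rho of 0.495, as a description of 2 counts that share their libraries. Within 1 gene the best and the least covered known junctions differed by a median of 9.94 times, so a junction level is coarse.

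**Figure D2:**
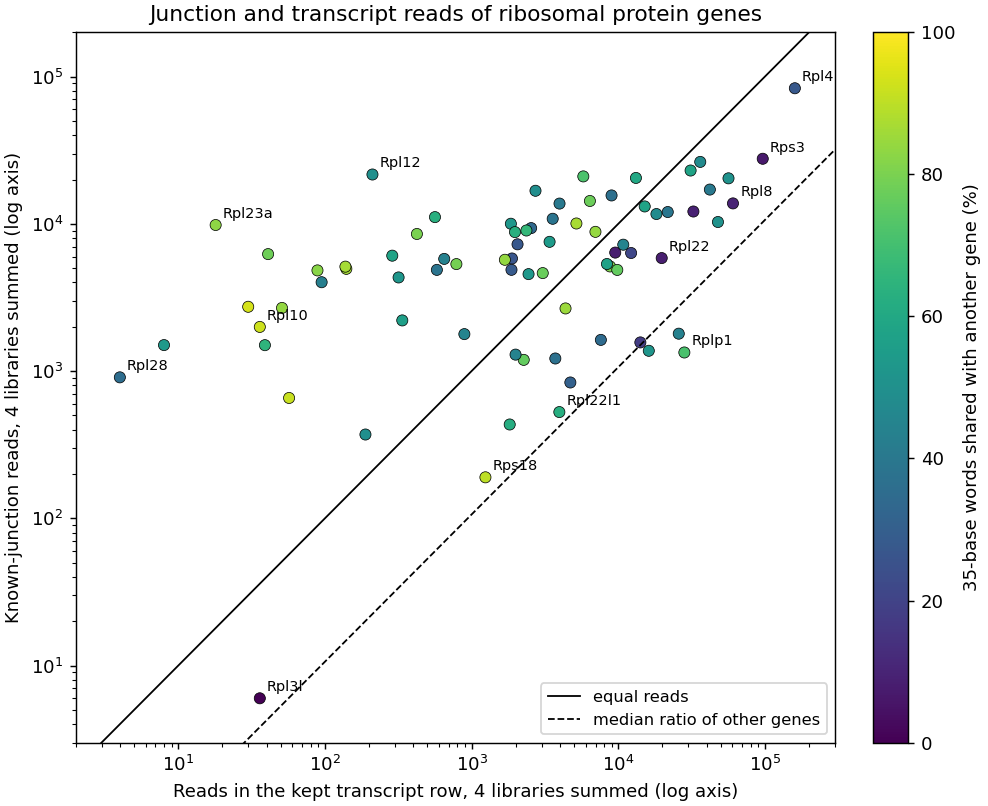
Reads across known junctions (y axis) against reads in the kept transcript row (x axis) for ribosomal protein genes with both values above 0, summed over the 4 libraries, on log axes. The solid line marks equal reads and the dashed line the median ratio of other genes, 0.106; colour gives the percent of the gene's 35-base words found in another gene, and Rpl23a and Rpl12 lie far above both lines.

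Sequence shared with other genes moved with this gap. For every gene the share of its transcript's 35-base words that also occur in the transcript of another gene, pseudogenes included, was taken from GENCODE M21. The median was 52.8% over the ribosomal protein genes and 0% over 2000 sampled other genes, and 2.60% of those reached 52.8%. Of the 84 genes, 83 shared a word with another gene, against 40.5% of the sampled genes. A median of 12 pseudogenes shared words with each. The starts of 4 coding sequences are shown, 2 of genes with far more junction than transcript reads and 2 of genes with the opposite, each 90 bases from the start codon, from GENCODE M21 transcripts (GRCm38). Capitals mark bases inside a 35-base word that occurs in another gene.
Rpl23a: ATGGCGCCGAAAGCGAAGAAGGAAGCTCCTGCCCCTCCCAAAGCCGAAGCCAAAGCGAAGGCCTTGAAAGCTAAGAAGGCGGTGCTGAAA
Rpl10: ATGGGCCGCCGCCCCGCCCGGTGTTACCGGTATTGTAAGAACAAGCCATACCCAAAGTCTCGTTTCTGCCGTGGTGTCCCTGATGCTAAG
Rps3: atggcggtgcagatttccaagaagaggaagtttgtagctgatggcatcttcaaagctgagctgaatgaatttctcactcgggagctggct
Rpl8: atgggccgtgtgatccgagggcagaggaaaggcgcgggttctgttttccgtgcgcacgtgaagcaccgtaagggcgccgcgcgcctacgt

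All 90 bases were shared in Rpl23a and Rpl10, and 0 in Rps3 and Rpl8. Over the whole transcript the shared percent was 83.1 in Rpl23a and 92.3 in Rpl10, against 6.67 in Rps3 and 9.55 in Rpl8. The 42 genes at or above the median shared percent had a median of 5.97 RPKM and 3.81 junction reads per transcript read, and the 42 below it had 9.92 RPKM and 0.644. Across 80 genes the shared percent and the ratio were related with a Spearman rho of 0.421. The relation has exceptions: Rps18, with 89.9% shared, had 0.153 junction reads per transcript read, and Rpl28, with 35.4% shared, had 227. Per the file headers only primary alignments of mapping quality 10 or more entered the transcript tables. The sources used here do not give the filter behind the junction tables. The part of shared sequence in the gap was not tested.

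Their start sites were read for the pyrimidine run. RefSeq promoters (GRCm38.p6, 250 bases before to 50 after the start) were matched for 62 of the 84 genes, with 74 start sites. A run of at least 8 C or T on the sense strand within 15 bases on either side of the start was present at 37.8% of these. Of all 32851 promoters 12.0% had one. Such a run can lie before the start and so outside the mRNA. The first base was C at 28.4% of the genes' start sites, against 16.3% of all. CCGGAAG, a motif of ETS factors, was found on either strand of 35.1% of the windows, against 8.86% of all. AAGATGGC, a motif of YY1, stood at 10.8% against 2.75%, and TATAAA on the sense strand at 8.11% against 8.32%. The letters AAG end the first of these motifs and begin the second, so 1 stretch can hold both. A match describes the letters and not a bound site. Windows of 30 bases around 5 starts, picked after their runs were seen, show the run in capitals. They are Rpl15 at chr14:18270972-18271001 (minus strand), Rpl38 at chr11:114668565-114668594 (plus), Rps10 at chr17:27635230-27635259 (minus), Rps18 at chr17:33955651-33955680 (minus) and Rps6 at chr4:86857353-86857382 (minus).
Rpl15: gtgggagaaagCCTTCTTCCTTTCCTCTgg
Rpl38: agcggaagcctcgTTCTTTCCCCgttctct
Rps10: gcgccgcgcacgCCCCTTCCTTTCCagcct
Rps18: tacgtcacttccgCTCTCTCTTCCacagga
Rps6: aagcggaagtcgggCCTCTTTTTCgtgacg

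The second question was whether the genes differed between KO and wild type, first as a group. Ribosomal protein genes took 0.716 and 0.722% of gene reads in wild type (0.719 ± 0.00455%, SD, n = 2) and 0.641 and 0.707% in KO (0.674 ± 0.0469%, SD, n = 2). Both KO libraries were below both wild types. KO minus wild type was -0.0447 percentage points with all libraries and -0.0115 without KO replicate 1. Of known-junction reads the genes took 4.38 and 3.78% in wild type (4.08 ± 0.426%, SD, n = 2) and 3.55 and 3.71% in KO (3.63 ± 0.114%, SD, n = 2). Here wild-type replicate 1 stood apart, and KO minus wild type was -0.449 percentage points with it and -0.148 without it. The 2-sided exact permutation test gave p = 0.333 for both shares, the smallest p that 2 libraries against 2 can give.

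The direction of the share depends on the scale. As a share of summed RPKM the genes took 0.874 and 1.93% in wild type and 1.52 and 1.98% in KO, so that the KO mean was higher by 0.349 percentage points. On that scale small RNA genes, which are very short, held 64.6% of the sum in wild-type replicate 1 and 19.5 to 32.0% in the other 3 libraries. The share of reads is therefore given as the value, and without the small RNA genes KO minus wild type was -0.0655 percentage points.

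**Figure D3:**
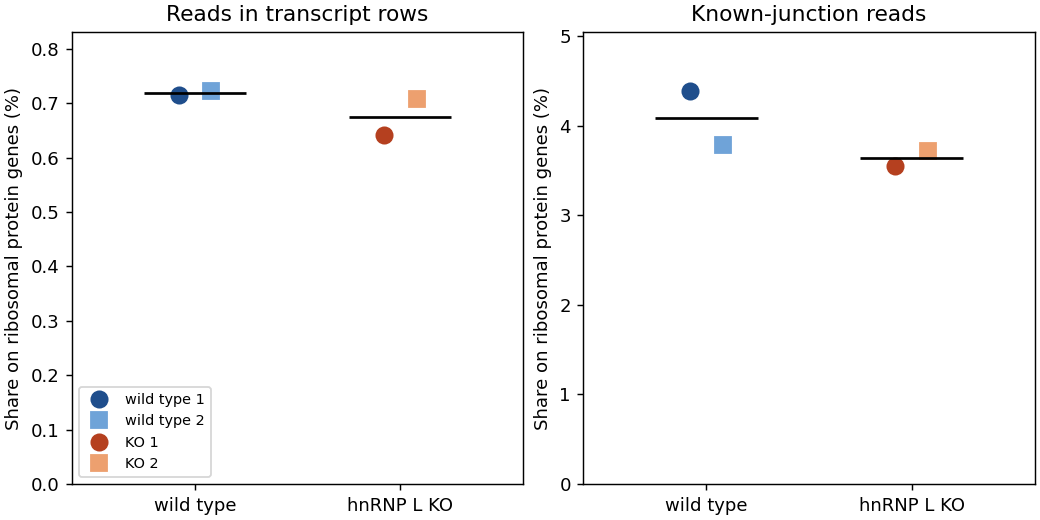
Share of reads on ribosomal protein genes in each library, in percent of gene reads (left) and of known-junction reads (right). Symbols are single libraries and the black lines group means; in the left panel KO replicate 1 is lowest at 0.641%, and in the right panel wild-type replicate 1 is highest at 4.38%.

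Gene by gene, most ribosomal protein genes had a lower estimate in KO, and none of them passed the test in either count. On transcript reads 75 of the 84 genes could be tested (the rest, among them Rpl23a, Rpl28 and Rps28, had too few reads). By edgeR's quasi-likelihood test 0 of 75 passed an adjusted p of 0.05, where 1 of all 13733 genes passed (0.00728%). DESeq2 and limma-voom also called 0 of them. Hnrnpl itself did not pass (log2 fold change -1.30, SE 0.42, edgeR adjusted p = 0.486), and neither DESeq2 nor limma-voom called it. A gene that did not pass can therefore still differ. The median log2 fold change of the 75 ribosomal protein genes was -0.16, against 0.01 over all genes tested. Of their estimates 57 of 75 were negative (76%, against 48.9% of all genes). At an unadjusted p under 0.05, 7 were lower (9.33%, against 3.61% of all genes) and 0 were higher (against 6.29%). The groups did not overlap for 24 genes on the lower side (32%, against 21.4%) and for 5 on the higher side (6.67%, against 23.3%). Without wild-type replicate 1 the 7 became 1 and the median -0.12, and without KO replicate 2 they became 16 and -0.20. Upper-quartile scaling, which moves the median of all genes to 0.06, gave 50 negative estimates and 3 lower genes at an unadjusted p under 0.05.

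Known-junction reads allowed 79 genes to be tested, among them Rpl23a, Rpl28, Rpl27, Rpl9 and Rps28. By edgeR 0 of 79 passed, where 3 of all 9939 genes did (0.0302%). The median log2 fold change was -0.22, against 0.00 over all genes, and 70 of 79 estimates were negative (88.6%, against 50.0%). At an unadjusted p under 0.05, 11 were lower (13.9%, against 3.89%) and 1, Rpl28, was higher (1.27%, against 4.91%). The groups did not overlap for 33 genes on the lower side (41.8%, against 19.2%) and for Rpl14 and Rpl36a on the higher side (2.53%, against 19.7%). This lean rests in good part on wild-type replicate 1. Its junction reads of these genes were above those of wild-type replicate 2 by a median log2 ratio of 0.23, in 58 of 79 genes, while the median over all genes was 0.00. Without it the median fold change was -0.11, 56 of 79 estimates were negative and 0 genes were lower at an unadjusted p under 0.05.

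**Figure D4:**
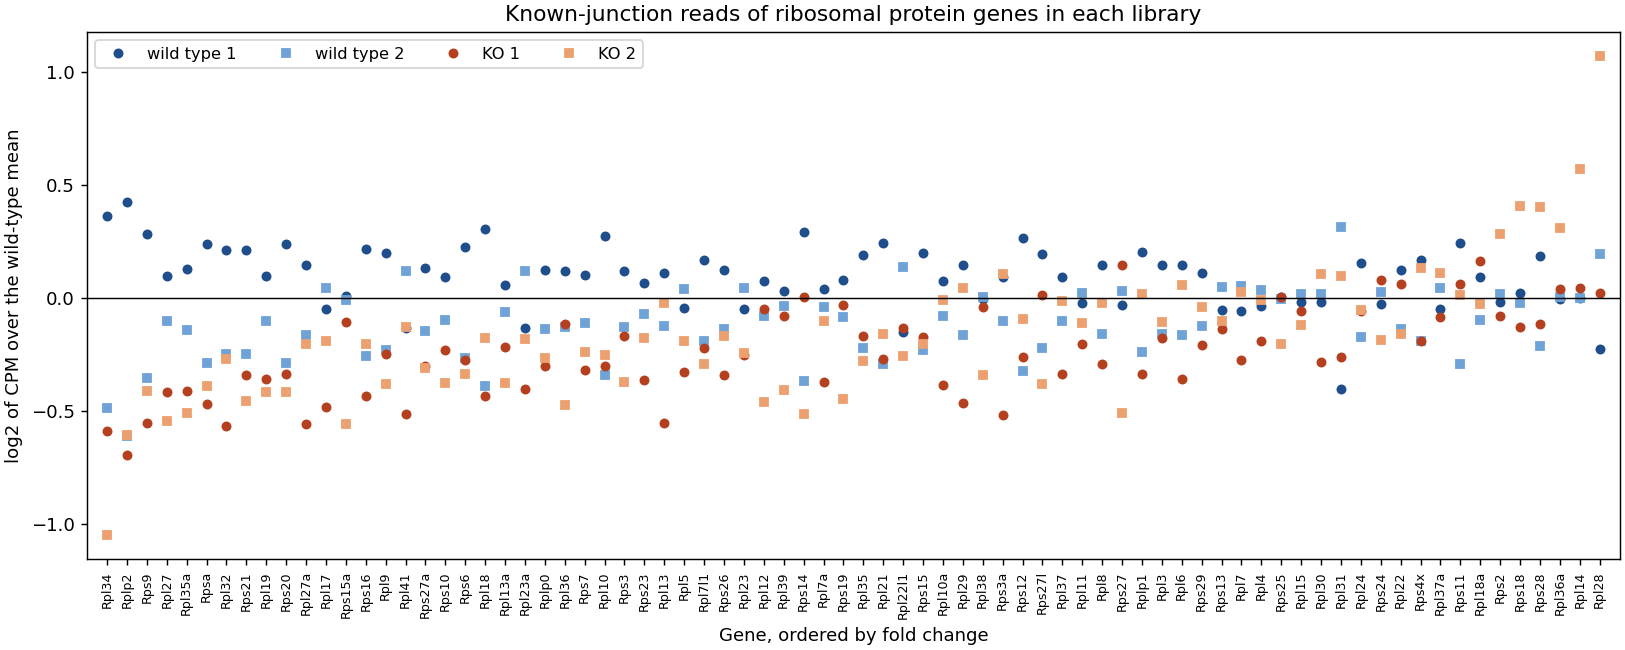
Known-junction CPM of 76 ribosomal protein genes in each library as log2 of its ratio to the wild-type mean (y axis), with genes in order of their fold change from Rpl34 to Rpl28 (x axis). Circles are replicate 1 and squares replicate 2; wild-type replicate 1 lies above the line for most genes (median 0.11 over the 79 tested), and the other libraries lie mostly below it, with medians of -0.12 for wild-type replicate 2, -0.19 for KO replicate 2 and -0.26 for KO replicate 1.

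The 2 subunits leaned alike. The median log2 fold change on transcript reads was -0.13 over 44 large subunit genes and -0.20 over 31 small subunit genes, and on junction reads -0.22 over 47 and -0.23 over 32. Genes with small nucleolar RNA genes inside their bounds on the same strand, 30 of the 84, had medians of -0.12 and -0.24, and the rest -0.20 on both counts. Wild-type replicate 1, the library with most small RNA reads, differed from wild-type replicate 2 by a median log2 ratio of -0.08 in the 29 tested host genes and 0.14 in the 46 others. Genes with more shared sequence had 23 of 37 negative estimates on transcript reads (62.2%), and those with less had 34 of 38 (89.5%). On junction reads these shares were 87.8% and 89.5%. Its part in the difference between the counts was not tested.

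Of the large subunit, Rpl30 (NM_009083, mm9 chromosome 15, 34370263 to 34372980), which lies at the interface of the subunits, had the smallest p on transcript reads. It had 146 and 108 CPM in wild type and 85.0 and 84.1 CPM in KO, a log2 fold change of -0.59 (SE 0.16, edgeR adjusted p = 0.414). Both KO libraries were below both wild types, and without wild-type replicate 1 the estimate was -0.35. Its known junctions, with 79.4 and 81.1 CPM in wild type and 66.0 and 86.3 CPM in KO, overlapped and gave -0.07 (SE 0.19). For Rpl30 the 2 counts thus differed in size.

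Rpl32 (NM_172086, mm9 chromosome 6, 115755532 to 115758761) had like estimates in both counts. It had 379 and 343 CPM in wild type and 256 and 276 CPM in KO on transcript reads (log2 fold change -0.44, SE 0.13, edgeR adjusted p = 0.429). On known junctions it had 766 and 558 CPM in wild type and 447 and 549 CPM in KO (-0.41, SE 0.18, edgeR adjusted p = 0.525). The groups did not overlap in either count, although on junctions wild-type replicate 2 and KO replicate 2 lay close together.

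Rpl38, whose loss in mice is known to alter the axial skeleton, had 15.4 and 13.2 CPM in wild type and 11.1 and 8.91 CPM in KO (log2 fold change -0.51, SE 0.18, edgeR adjusted p = 0.476). The KO libraries were below the wild types, and its junction estimate was -0.18 (SE 0.16). Rpl35a, a gene mutated in Diamond-Blackfan anaemia, a failure of red cell production, had 157 and 130 junction CPM in wild type and 108 and 101 in KO. Its log2 fold change was -0.46 on junctions (SE 0.17, edgeR adjusted p = 0.475) and -0.74 on transcript reads (SE 0.33), with groups that did not overlap in either count. Rpl34 (NM_026724, mm9 chromosome 3, 130429749 to 130433226) had the smallest p on junctions, with 118 and 65.4 CPM in wild type and 61.1 and 44.4 CPM in KO (-0.79, SE 0.25, edgeR adjusted p = 0.429). Wild-type replicate 1 was farther from wild-type replicate 2 than the group means were from each other, and without replicate 2 Rpl34 passed the edgeR test on junctions (log2 fold change -1.17, adjusted p = 0.00105). Rpl27, too rare for the transcript test, had 104 and 90.7 junction CPM in wild type and 73.0 and 66.9 in KO (-0.48, SE 0.18).

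In the stalk, Rplp2 (NM_026020, mm9 chromosome 7, 148633549 to 148637241) had 74.3 and 60.9 CPM in wild type and 45.4 and 56.5 CPM in KO (log2 fold change -0.41, SE 0.15, edgeR adjusted p = 0.484). Its groups did not overlap on transcript reads, where leaving out wild-type replicate 1 gave -0.25 and leaving out KO replicate 1 gave -0.26. On junctions they did: wild-type replicate 1 had 1445 CPM and the other 3 libraries 665 to 707 CPM (-0.65, SE 0.28). Without wild-type replicate 2 this junction difference was -1.08 and passed the edgeR test (adjusted p = 7.8e-04). Rplp0, the protein that anchors the stalk, had 405 CPM in each wild-type library and 325 and 356 CPM in KO (-0.25, SE 0.13), and on junctions -0.28 (SE 0.16), with no overlap in either count. Rplp1 had 234 and 176 CPM in wild type and 187 and 159 CPM in KO, which overlap (-0.24, SE 0.17).

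Of the small subunit, Rps9 (NM_029767, mm9 chromosome 7, 3655643 to 3658499), a protein that binds the ribosomal RNA early in assembly, had 385 and 265 CPM in wild type and 224 and 241 CPM in KO (log2 fold change -0.48, SE 0.18, edgeR adjusted p = 0.486). The KO libraries were below the wild types, of which replicate 1 was far the higher, and without it the estimate was -0.18. Rpsa, also known as a laminin receptor, had 85.6 and 73.5 CPM in wild type and 55.7 and 71.1 CPM in KO (-0.33, SE 0.15), and -0.43 on junctions (SE 0.18). Its groups did not overlap, although KO replicate 2 came close to wild-type replicate 2.

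Rps27a, made as a fusion with ubiquitin, had 416 and 344 junction CPM in wild type and 309 and 306 in KO (log2 fold change -0.30, SE 0.16), and its 288 transcript reads gave -0.46 (SE 0.41). On junctions its groups were apart. Rps24, another Diamond-Blackfan anaemia gene, had 34.9 and 44.6 CPM in wild type and 40.7 and 33.0 CPM in KO, with groups that overlapped (-0.11, SE 0.17). Rps6, the substrate of the S6 kinases through which growth signals act, had 25.2 and 30.9 CPM in wild type and 28.3 and 33.3 CPM in KO (0.13, SE 0.16). On junctions Rps6 went the other way, with 196 and 139 CPM in wild type and 139 and 133 CPM in KO (-0.30, SE 0.18).

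Of the genes with the smallest p on the higher side, Rpl6, Rpl13, Rpl10 and Rps6 had negative estimates on junctions. Rpl6, a protein of the large subunit, had 12.4 and 15.9 CPM in wild type and 16.04 and 20.2 CPM in KO (edgeR adjusted p = 0.547), so KO replicate 1 was close to wild-type replicate 2. Rpl6 gave 0.35 on transcript reads (SE 0.19) and -0.13 on junctions (SE 0.18), Rpl13 0.19 (SE 0.13) and -0.26 (SE 0.18), and Rpl10 0.81 (SE 0.66) and -0.27 (SE 0.19). Rpl10 rested on 36 transcript reads. Single libraries moved these transcript estimates. Without wild-type replicate 1 they were 0.19 for Rpl6, 0.05 for Rpl13 and 0.35 for Rpl10, and without wild-type replicate 2 they were 0.55, 0.35 and 1.63. Without KO replicate 2 Rpl6 gave 0.18. The share of sequence held in common with other genes was 66.5 to 92.3% in these 4 genes, and its part was not tested. On junctions, Rpl28 had 36.0 and 48.1 CPM in wild type and 42.7 and 88.2 CPM in KO (0.64, SE 0.29, edgeR adjusted p = 0.557), so KO replicate 2 alone was high. Rpl14 had 237 and 236 junction CPM in wild type and 244 and 352 in KO (0.33, SE 0.17).

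On the X chromosome lie Rpl10, Rpl36a, Rpl39 and Rps4x. Rps4x had 42.4 and 42.6 CPM in wild type and 40.6 and 47.3 CPM in KO (log2 fold change 0.05, SE 0.12), with KO replicate 1, the library with Y-linked reads, lowest by a small margin. Rpl39 had 95.9 and 83.3 CPM in wild type and 77.9 and 67.9 CPM in KO (-0.30, SE 0.13), and there KO replicate 1 was the higher KO. Rpl36a had 268 and 270 junction CPM in wild type and 277 and 334 CPM in KO (0.18, SE 0.16). The 4 genes showed no common order of the libraries.

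**Figure D5:**
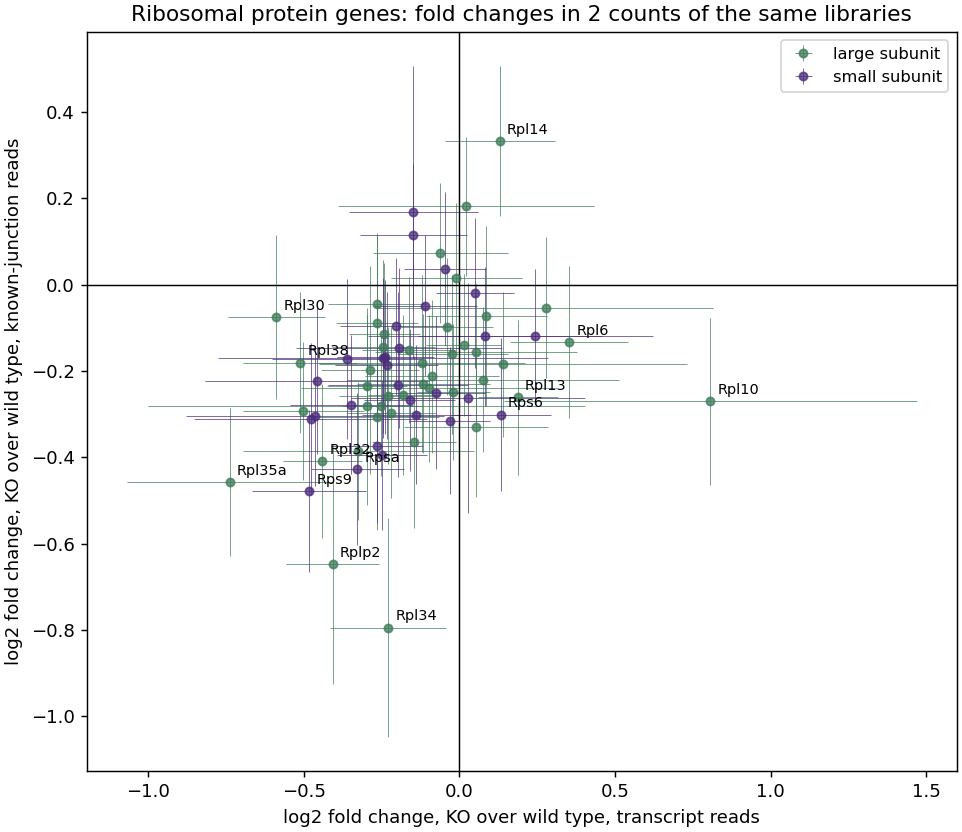
Log2 fold change, KO over wild type, of 71 ribosomal protein genes on transcript reads (x axis) and on known-junction reads (y axis), with bars of 1 SE, in green for the large and purple for the small subunit. Most points lie in the lower left quadrant, while Rpl6, Rpl13, Rpl10 and Rps6 lie in the lower right.

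Both counts could be given for 73 genes. In 52 of them the sign was the same, and 4, among them Rpl32, Rplp2 and Rps9, were lower at an unadjusted p under 0.05 in both. KO was below wild type without overlap in both counts for 17 genes, among them Rpl5, Rpl13a, Rpl39, Rplp0, Rps3, Rps7 and Rpsa. In a single count 21.4% of all genes on transcript reads and 19.2% on junctions lay so. The share of all genes that did so in both counts is not given here. Whether the counts of 52, 4 and 17 are unusual thus cannot be read from them. The 2 sets of fold changes were related with a Spearman rho of 0.382. These are 2 counts of the same 4 libraries and not independent measurements.

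Close relatives outside the naming rule leaned the same way. On transcript reads all 4 genes of this list, among them Fau and Gnb2l1, had negative estimates, with a median of -0.29. There 0 passed the edgeR test or had an unadjusted p under 0.05. On junctions the median was -0.31, not all estimates were negative and 0 passed. Gnb2l1 (-0.37, SE 0.16) was among those lower on junctions at an unadjusted p under 0.05. DESeq2 and limma-voom called 0 genes in this list and in the next 4. Gnb2l1, the scaffold protein of the small subunit also called Rack1, had 2176 and 1617 CPM in wild type and 1501 and 1436 CPM in KO (log2 fold change -0.37, SE 0.18). Fau, a ubiquitin-like fusion with a small subunit protein, gave -0.21 (SE 0.29). The KO libraries were below the wild types for Gnb2l1.

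Of 20 other mRNAs known for a pyrimidine start, 13 had negative estimates on transcript reads (48.9% of all genes did) and the median was -0.14 on both counts. On transcript reads 0 passed by edgeR, 1 was lower and 1 higher at an unadjusted p under 0.05, where 3.61% of all genes were lower and 6.29% higher. They were 2 subunits of the initiation factor eIF3: Eif3e, with -0.29 (SE 0.11), and Eif3f, with 0.30 (SE 0.12), while Eif3h gave -0.25 (SE 0.11). Of 35 ribosome biogenesis genes 13 had negative estimates, the median was 0.07 (0.11 on junctions), and 0 passed. At an unadjusted p under 0.05, 5 were higher and 0 lower on transcript reads, while on junctions Ncl, Nop14, Wdr43, Rrp1 and Tcof1 were higher and Nhp2, a protein of box H/ACA particles, was lower (-0.59, SE 0.23). Ncl, the nucleolar protein nucleolin, had 150 and 175 CPM in wild type and 217 and 225 CPM in KO (0.45, SE 0.13, edgeR adjusted p = 0.425), Tcof1, a factor of ribosomal RNA transcription, gave 0.41 (SE 0.12), and Rrp1 gave 0.54 (SE 0.19). Of 20 genes of growth control 12 had negative estimates on transcript reads (median -0.04, which turned to 0.01 with upper-quartile scaling). On these reads 0 passed and 1 was higher at an unadjusted p under 0.05, where 6.29% of all genes were higher. On junctions the median was -0.01 over 18 genes. Rps6kb2 (0.65, SE 0.21) and Myc (0.71, SE 0.32) were higher there at an unadjusted p under 0.05, where 4.91% of all genes were higher. The smallest p-values on transcript reads belonged to Eef2k, the kinase of elongation factor 2, with 0.33 (SE 0.13), Rps6kb2 with 0.32 (SE 0.15) and Mlst8 with -0.22 (SE 0.12). Of 4 genes of the p53 branch 0 passed and 1 was higher at an unadjusted p under 0.05 on transcript reads. Trp53 gave -0.18 (SE 0.12) and Mdm2 -0.11 (SE 0.11). Cdkn1a, a cell cycle inhibitor induced by p53, had 5.65 and 5.41 CPM in wild type and 7.06 and 15.2 CPM in KO (1.01, SE 0.35, edgeR adjusted p = 0.475), with KO replicate 2 far above the rest.

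Because hnRNP L acts on splicing, the junctions were also compared within each gene. The tables list 375 known junctions of ribosomal protein genes, 366 of them with reads, and 767 putative ones, 125 with reads. Putative junctions held 0.0727 and 0.0696% of the genes' junction reads in wild type and 0.0655 and 0.0860% in KO, against 1.20 to 1.22% for other genes in every library. The use of each junction beside the rest of its gene was tested with edgeR for 363 junctions of 79 ribosomal protein genes, and 0 passed, where 4 of all 95139 did (0.0042%). At an unadjusted p under 0.05 there were 8, or 2.20%, against 2.55% of all junctions, and limma-voom called 0 of the 363 as well.

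The smallest p belonged to the fifth known junction of Rpl7a, a large subunit gene, between the exon bases 26767965 and 26768191 of mm9 chromosome 2. It held 281 and 420 reads in wild type and 46 and 124 in KO, or 16.9 and 20.8% of the gene's junction reads against 5.24 and 10.8%. Both KO libraries were below both wild types (log2 change of usage -0.82, edgeR unadjusted p = 7.0e-04, adjusted p = 1.00). The intron is 225 bases long and holds the small nucleolar RNA gene Gm24134. The first junction of Rpl5, which carries the ribosomal 5S RNA into the large subunit, held 56 and 70 reads in wild type and 82 and 62 in KO, or 1.21 and 1.11% of the gene's junction reads against 3.08 and 1.94% (0.76, adjusted p = 1.00). Junctions in Rpl24, Rpl9, Rpl27 and Rpl38 were also among those with the smallest p, at 1.66 to 15.3% of their genes' junction reads in every library.

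Reads that skip an exon or a stretch of exons, at least 5 over the 4 libraries, were found at 22 places in these genes beside reads that include it. In Rps24 the skipped stretches of 367 and 1398 bases each hold a further known junction, so they are more than 1 exon. Skipping of an 84-base exon of Rps7 (mm9 chromosome 12, 29320445 to 29320528) was read 6 and 8 times in wild type and 0 times in either KO, beside 461 and 520 reads of inclusion (the mean of both junctions) in wild type and 218 and 288 in KO. Skipping of a 151-base exon of Rps14 was read 1 and 4 times in wild type and 7 and 6 times in KO. That was 0.0349 and 0.187% in wild type and 0.448 and 0.511% in KO. A 76-base exon of Rpl27a was skipped in 0 reads of either wild type and in 3 and 2 of KO (5.71 and 3.36%). A 182-base exon of Rpl32 went the other way, with 2 and 3 skipping reads in wild type and 0 in either KO. A 41-base exon of Rpl17 was skipped at 5.53 and 4.24% in wild type and 2.75 and 11.7% in KO, so the KO libraries lay on either side of the wild types. Rps24 is known for short alternative exons near its 3′ end. The junction that passes over them held 712 and 1058 reads in wild type and 447 and 569 in KO, whereas the junction that leaves its 20-base exon held 2, 6, 2 and 4 reads in the same order. Skipping of that exon was thus 99.9 and 99.7% in wild type and 99.7 and 99.6% in KO. The form without it was nearly the only one in all 4 libraries.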

How the data were processed

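For each library the authors deposited raw read counts per RefSeq transcript with the ratio of reads to length and the RPKM, and a table of raw read counts per known or putative exon junction. Per the file headers, the authors counted only primary alignments of mapping quality 10 or more in the transcript tables. Per the submitters' processing notes the build is mm9; the sources used here do not give the aligner or whether strand was used. The deposited ratio was only checked and the deposited RPKM values were used for levels only, with no test.

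Groups came from the sample labels. The ribosomal protein genes, the other gene lists and the tests were chosen with earlier results of these data known. Transcript counts and counts summed over the known junctions of a symbol were each tested over all genes with edgeR 4.0.16 in R 4.3.3 (robust quasi-likelihood fit, TMM scaling, filterByExpr by group, Benjamini-Hochberg adjustment, threshold 0.05). Junction usage was tested with edgeR's diffSpliceDGE for junctions with at least 10 reads. CPM values are TMM-scaled. With 2 libraries per group, p-values measure the spread between these mice only. Alternatives used DESeq2 1.42.0, limma 3.58.1, RLE and upper-quartile scaling, no filter, all transcript rows, no small RNA genes, a replicate block, and each library left out. The scripts were tested on simulated data. Shares of shared sequence used 35-base words of GENCODE M21 transcripts. For single junctions, exons and small nucleolar RNA genes were matched to GENCODE M21 by intron length. Host genes of small nucleolar RNAs were taken by position within the gene in GENCODE M21.

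Named are the 5 genes with the smallest p in each direction, the 5 with the highest and the 5 with the lowest mean RPKM, paralog pairs, the stalk proteins, Rpsa, Rps6, Rps27a, Rps24, the X-linked genes, the 5 junctions with the smallest p in each direction, and the 3 genes with the smallest p of each other list. Some genes that this rule names are not reported here. Other names were picked after their values were seen.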

Additional observations from a re-analysis of the deposited data

How the results depend on the processing

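On transcript reads 0 ribosomal protein genes passed under each of the 13 alternatives, while the number of all genes that passed ranged widely around 1: 0 with upper-quartile scaling, limma-voom, no robust moderation or the sum of all transcript rows, 3 without small RNA genes, 62 with no filter on low counts, 108 with DESeq2, and 2 to 427 with 1 library left out. The median log2 fold change of the ribosomal protein genes was -0.11 with upper-quartile scaling and -0.20 to -0.12 with 1 library left out. On known-junction reads it was -0.31 to -0.11 with 1 library left out, lowest in size without wild-type replicate 1. There 0 to 2 ribosomal protein genes passed: Rpl34 and Rplp2 without wild-type replicate 2 (edgeR adjusted p = 0.00105 and 7.8e-04). Over all junctions 4 passed, against 2 with known junctions only, 1 with limma-voom and 3 to 10 with 1 library left out, and 0 of them lay in ribosomal protein genes under each alternative. Rps6 had -0.00136 without wild-type replicate 1 and 0.29 without wild-type replicate 2, against 0.13 with all libraries. The share of gene reads was higher in KO, by 0.349 percentage points, with RPKM in place of reads. Where no value is given with these changes, the cause was not tested.

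Equal replicate numbers join the groups by number only: deviations of same-numbered libraries from their group means correlated at 0.282 over 13733 genes and at -0.110 over 75 ribosomal protein genes. With the replicate number as a block, 121 genes passed on transcript reads and 0 ribosomal protein genes, 10 junctions passed and 0 in ribosomal protein genes, and on known-junction reads 1 ribosomal protein gene passed, Rpl34 (edgeR adjusted p = 0.00869).

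Depth limits the rare genes, since 15 of the 84 had under 100 transcript reads. Reads of overlapping or antisense genes cannot be told apart, and how reads that fit several copies were counted is unknown, so levels between genes are uncertain.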
